A study of Mus musculus with 9 samples.

Results

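The 10 genes described here encode secreted matricellular proteins: the thrombospondins Thbs1, Thbs2, Thbs3, Thbs4 and Comp, the tenascins Tnc and Tnxb, the related glycoproteins Sparc and Sparcl1, and periostin (Postn). They were chosen by family membership, with earlier results of these data known. All 10 were present among the 19348 gene symbols counted, and all 10 were among the 15550 that passed a filter on low counts. The cells were sorted from the lungs of C57BL/6J mice of the genotype Col1_GFP;Foxf1_tdTomato, so every group carried both transgenic reporters, a green one for type I collagen and a red one for the forkhead transcription factor Foxf1. Cells positive for both reporters were named DBL (replicates 1, 3 and 4). Cells with the collagen reporter alone were named ColGFP, and those with the Foxf1 reporter alone TDonly (replicates 1, 2 and 3 of each). No treatment, age, sort gate or pooling of animals is given in the sources used here, and the regulatory sequences that drive the reporters are known only from the genotype's name. The question, from the series title, is what distinguishes collagen-expressing mesenchymal cells with Foxf1 from those without it.

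Matricellular proteins are secreted into the extracellular matrix, where they act mainly as regulators of cells and matrix assembly and less as load-bearing scaffold. Thrombospondins bind cell receptors such as CD36 and CD47, integrins and growth factors, and thrombospondin-1 can activate latent TGF-beta. Tenascins and SPARC modulate adhesion and collagen assembly, and periostin helps crosslink collagen. In the lung, fibroblasts and smooth muscle are well known sources of several of these proteins, and tenascin-C and periostin are associated with development, injury and fibrosis.

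Levels are CPM, counts relative to library size with TMM scaling factors, given as mean ± SD with n = 3 libraries per population. Differences are log2 fold changes ± SE from edgeR's quasi-likelihood test, with p-values adjusted by the Benjamini-Hochberg method over all 15550 genes and a threshold of 0.05. Library totals were 17820969 to 26147475 counts. The replicate 1 library differed from the other pair in each population, with a chi-square over genes of 57 to 104 times its degrees of freedom for pairs that include it and 5.51 to 15.3 times for the rest. The replicate 1 libraries carry lower sequencing core numbers than the other 6, and no label calls this a batch, so values without them are given where they change a call. That fit of 6 libraries has only a pair per population. The libraries of each pair were closer to each other than to replicate 1, so its p-values rest on a smaller spread. No label states that replicates came from separate animals, and the p-values therefore measure a spread between samples that may be technical. Foxf1 (listed as Foxf1a) was at 101 ± 13.1 CPM in DBL, 59.7 ± 4.47 in ColGFP and 246 ± 28.5 in TDonly, and Col1a1 was at 11668 ± 1908 CPM in DBL, 7904 ± 2577 in ColGFP and 1144 ± 669 in TDonly. The sorted populations were thus not free of the transcript whose reporter they lacked. The summed level of 16 endothelium markers was 1011 to 1466 CPM in ColGFP, 5268 to 6818 in DBL and 15400 to 17308 in TDonly, and that of 12 epithelium markers was 4087 to 15085 CPM over the 9 libraries.

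Of all tested genes, 45.5% differed between TDonly and ColGFP, 29.9% between DBL and TDonly and 14.5% between DBL and ColGFP. All 10 matricellular transcripts were lower in TDonly than in ColGFP, where 24% of all tested genes were lower, and all 10 were higher in DBL than in TDonly, where 17.3% of all tested genes were higher. In both comparisons the libraries of the groups did not overlap for any of the 10, against 56.1% and 47% of all tested genes. Between DBL and ColGFP only Thbs1 and Sparcl1 passed the test, both lower in DBL, where 6.47% of all tested genes were lower, and 0 were higher in DBL against 8.04% of all genes. At an unadjusted p under 0.05, which 4186 of the 15550 genes met in either direction, 1 member was higher (Postn) and 4 were lower (Thbs2 and Thbs4 in addition). DESeq2 with adjusted p called 1 higher and 2 lower, and the shares of all genes that it called are not given here. The groups did not overlap for 5 of the 10 in that comparison, against 33.3% of all genes. The median log2 fold change of the 10 was -2.97 for TDonly relative to ColGFP, 2.01 for DBL relative to TDonly and -0.84 for DBL relative to ColGFP, and the medians of all tested genes were 0.02, -0.04 and 0.00. The 3 comparisons share libraries, so their values are set side by side and are not independent.

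**Figure D1:**
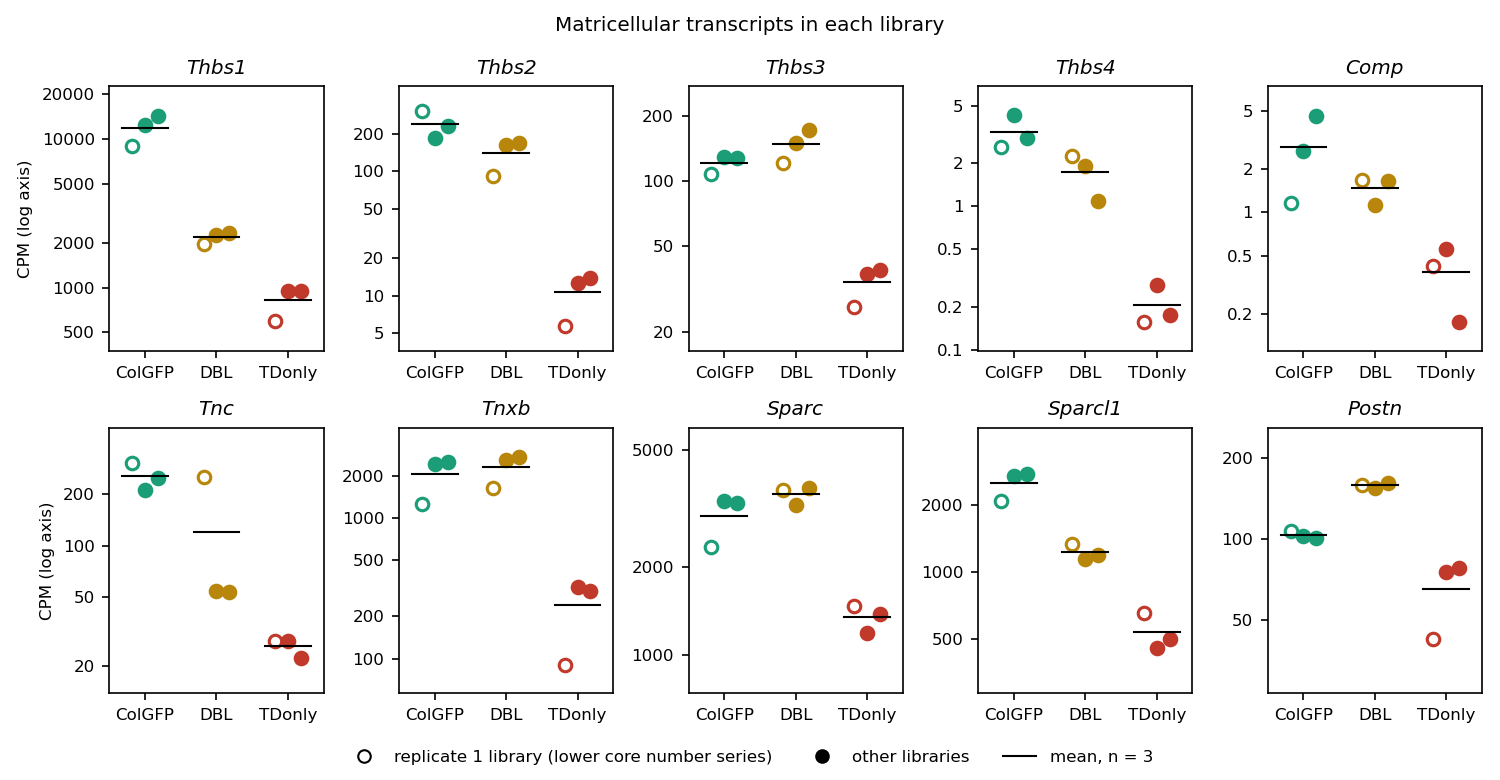
CPM of each of the 10 transcripts on log axes, 1 panel per gene, with each library as a point (open for replicate 1), populations on the x axis and a bar at the mean of 3 libraries. TDonly libraries lie below all ColGFP and DBL libraries in every panel, while the order of ColGFP and DBL differs from gene to gene.

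Together the 10 genes took 1.55 to 2.18% of all counts in the ColGFP libraries, 0.926 to 1.02% in DBL and 0.291 to 0.361% in TDonly. In bulk samples such as these, fewer cells of a type and less RNA per cell cannot be told apart, and this holds for every difference below.

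The members did not share a common promoter layout in the 250 bases before the annotated start. RefSeq windows (GRCm38.p6) were matched for 7 of the 10, and not for Thbs1, Comp and Sparcl1. The Sparc window (chr11:55420081-55420330) lies within the gene and holds exonic bases of Sparc. Postn and Tnc each have a further window for another start, which is not printed (chr3:54359017-54359266 and chr4:64046937-64047186). That of Tnc holds exonic bases of Tnc. The windows of 4 members that differ in how their levels are ordered across the populations are shown, each written on the gene's own strand with the matched letters in capitals. Thbs2 (chr17:14694263-14694512, minus strand) and Tnc (chr4:64047016-64047265, minus strand) had their highest mean in ColGFP, Tnxb (chr17:34670285-34670534, plus strand) had similar levels in ColGFP and DBL, and Postn (chr3:54360857-54361106, plus strand) had its highest mean in DBL.
Thbs2: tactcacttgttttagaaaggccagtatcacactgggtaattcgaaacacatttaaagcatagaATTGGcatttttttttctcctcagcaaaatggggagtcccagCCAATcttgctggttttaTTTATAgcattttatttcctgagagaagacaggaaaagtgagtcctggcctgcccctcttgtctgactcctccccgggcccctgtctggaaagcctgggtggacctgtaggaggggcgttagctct
Tnc: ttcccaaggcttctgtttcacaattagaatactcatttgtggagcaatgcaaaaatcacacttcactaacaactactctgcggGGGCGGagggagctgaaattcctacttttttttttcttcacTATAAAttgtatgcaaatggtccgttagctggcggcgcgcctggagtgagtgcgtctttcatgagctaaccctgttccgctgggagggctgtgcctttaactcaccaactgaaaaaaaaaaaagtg
Tnxb: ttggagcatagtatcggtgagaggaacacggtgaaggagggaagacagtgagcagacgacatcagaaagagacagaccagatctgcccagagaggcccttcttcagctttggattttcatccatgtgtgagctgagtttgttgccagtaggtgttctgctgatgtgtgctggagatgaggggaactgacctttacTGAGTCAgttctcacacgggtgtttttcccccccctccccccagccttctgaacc
Postn: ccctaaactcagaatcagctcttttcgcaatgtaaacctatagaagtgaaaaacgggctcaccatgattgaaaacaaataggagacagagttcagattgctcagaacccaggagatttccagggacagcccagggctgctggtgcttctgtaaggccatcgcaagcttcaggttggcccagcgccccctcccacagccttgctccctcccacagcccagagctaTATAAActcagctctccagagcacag
The capitals mark TATAAA in Postn, 26 bases before the start, and in Tnc, 126 bases before it. Relative to the other Tnc start the same letters lie 205 bases before it, and the further Postn window has no TATAAA. The further Tnc window also holds TATATAAG nearer to its start, letters that the search for TATAAA does not match. In Thbs2 they mark TTTATA, which is TATAAA on the other strand, and CCAAT with its reverse ATTGG. In Tnc they also mark GGGCGG, and in Tnxb TGAGTCA, a match to the AP-1 motif TGANTCA, 55 bases before the start. All motifs were searched on both strands of all 32851 RefSeq windows of this length. TATAAA was found in 12.4% of them, CCAAT in 33.8%, GGGCGG in 32.7% and TGANTCA in 6.75%. The forkhead motif TGTTTAC was found in 3.17% of all windows and in none of the windows of the 7 members, which says only that these letters are not in this stretch. The shorter TGTTT, which the longer motif contains, was found in 46.4% of all windows and in those of 6 of the 7 members. No binding data belong to this series, and a match is a description of the sequence only.

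Thbs1 encodes thrombospondin-1, an inhibitor of angiogenesis and an activator of latent TGF-beta (mm10 chromosome 2, 118111876 to 118127133, plus strand). It measured 8981, 12532 and 14256 CPM in ColGFP replicates 1, 2 and 3. In DBL it measured 1972, 2278 and 2327 CPM in replicates 1, 3 and 4, and in TDonly 594, 947 and 951 CPM in replicates 1, 2 and 3. The populations formed 3 separate steps, and replicate 1 was the lowest library of each. Thbs1 was 5.44-fold lower in DBL than in ColGFP (log2 -2.44 ± 0.24, adjusted p = 0.000175) and 14.3-fold lower in TDonly than in ColGFP (log2 -3.84 ± 0.26, adjusted p = 3.16e-06). It was 2.64-fold higher in DBL than in TDonly (log2 1.40 ± 0.24, adjusted p = 0.00166). Being lower in DBL than in ColGFP and higher in DBL than in TDonly, both with adjusted p under 0.05, was met by 3.52% of all tested genes. Among the 10, Thbs1 and Sparcl1 met it. Of the exonic bases of Thbs1, 187 (3.2%) overlap the gene model Gm29233 on the other strand, and the strand setting of the counting is not given in the sources used here.

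Thbs2 encodes thrombospondin-2, a close relative with a part in collagen fibril organisation (chromosome 17, 14665500 to 14694235, minus strand). Its levels were 303, 184 and 233 CPM in the ColGFP libraries, 91.5, 162 and 167 in DBL and 5.69, 12.7 and 13.8 in TDonly. TDonly lay far below both other populations, while ColGFP and DBL were separated by a narrow gap. The log2 fold change was -4.49 ± 0.39 for TDonly relative to ColGFP (adjusted p = 1.39e-05) and 3.71 ± 0.37 for DBL relative to TDonly (adjusted p = 0.000137). For DBL relative to ColGFP it was -0.78 ± 0.33 and did not pass (adjusted p = 0.168). Within the 6 libraries of the higher core numbers it was -0.33 and passed (adjusted p = 0.015). The log2 ratio between the replicate 1 libraries of DBL and ColGFP was -1.73.

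Thbs3 encodes a pentameric thrombospondin (chromosome 3, 89215180 to 89226837, plus strand). It measured 107, 129 and 127 CPM in ColGFP, 121, 150.2 and 171 in DBL and 26.1, 37.1 and 38.9 in TDonly. ColGFP and DBL overlapped, and DBL was the population with the highest mean, unlike for Thbs1 and Thbs2. The log2 fold change was -1.83 ± 0.18 for TDonly relative to ColGFP (adjusted p = 2.96e-05), 2.11 ± 0.18 for DBL relative to TDonly (adjusted p = 7.5e-05) and 0.28 ± 0.17 for DBL relative to ColGFP (adjusted p = 0.341). The last of these passed within the 6 libraries of the higher core numbers, at 0.34 (adjusted p = 0.00346).

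The other pentameric members, Thbs4 and Comp (cartilage oligomeric matrix protein, abundant in cartilage and tendon), were near the lower limit of detection. Thbs4 had 58, 71 and 65 counts in the ColGFP libraries, 59, 42 and 27 in DBL and 4, 7 and 4 in TDonly. Comp had 26, 44 and 101 counts in ColGFP, 44, 25 and 41 in DBL and 11, 14 and 4 in TDonly. Every TDonly library was below every library of the other populations once scaled to CPM, and ColGFP and DBL overlapped for Comp but not for Thbs4. Thbs4 was lower in TDonly than in ColGFP by a log2 fold change of -3.97 ± 0.42 (adjusted p = 5.12e-05) and higher in DBL than in TDonly by 3.06 ± 0.43 (adjusted p = 0.00061). Comp was lower in TDonly than in ColGFP by -2.84 ± 0.57 (adjusted p = 0.00267). Its difference between DBL and TDonly, 1.91 ± 0.57 (adjusted p = 0.0305), did not pass without DBL replicate 1 (adjusted p = 0.0679), DBL replicate 4 (0.0774), TDonly replicate 1 (0.0618) or TDonly replicate 3 (0.0945). DBL relative to ColGFP gave -0.91 ± 0.34 for Thbs4 (adjusted p = 0.117) and -0.92 ± 0.50 for Comp (adjusted p = 0.285). The Comp value was -0.35 without ColGFP replicate 3, its highest library. In the 6 libraries of the higher core numbers both passed as lower in DBL, at -1.27 for Thbs4 (adjusted p = 0.0183) and -1.39 for Comp (adjusted p = 0.0172). The log2 ratio between the replicate 1 libraries of DBL and ColGFP was -0.205 for Thbs4 and 0.529, the other direction, for Comp. Summed markers of cartilage and tendon were 33.0 to 55.5 CPM in ColGFP, 19.9 to 40.7 in DBL and 9.63 to 18.1 in TDonly, where the tendon marker Tnmd was at 0. Of the 7 tested, 5 were lower in TDonly than in ColGFP, against 24% of all tested genes. The part of these markers in the Comp and Thbs4 values was not tested.

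Tnc encodes tenascin-C, which is abundant in developing and injured tissue (chromosome 4, 63959785 to 64047015, minus strand). It measured 303, 212 and 249.7 CPM in ColGFP and 28.0, 27.6 and 22.0 CPM in TDonly. In DBL replicate 1 it was at 251 CPM, within the range of ColGFP, but in DBL replicates 3 and 4 it was at 54.3 and 53.6 CPM. The DBL mean of 119.8 ± 114 CPM was therefore close to none of the DBL libraries. TDonly was lower than ColGFP by a log2 fold change of -3.30 ± 0.57 (adjusted p = 0.00111) and DBL was higher than TDonly by 2.21 ± 0.55 (adjusted p = 0.0131), the latter with an adjusted p of 0.0515 without TDonly replicate 3. DBL relative to ColGFP gave -1.09 ± 0.53, which did not pass (adjusted p = 0.222). Without DBL replicate 1 Tnc was lower in DBL than in ColGFP by -2.24 (adjusted p = 0.000134), and its excess over TDonly was 1.06 (adjusted p = 0.00163). The 6 libraries of the higher core numbers alone, a pair per population, gave -2.08 (adjusted p = 5.6e-11) and 1.16 (adjusted p = 9.44e-08). Between the replicate 1 libraries of DBL and ColGFP the log2 ratio was -0.27.

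Tnxb encodes tenascin-X, a matrix protein that organises collagen and whose loss causes a form of Ehlers-Danlos syndrome (chromosome 17, 34670535 to 34719815, plus strand). It measured 1248, 2410.2 and 2484 CPM in ColGFP, 1626, 2569.7 and 2719 in DBL and 90.6, 325 and 302 in TDonly. Replicate 1 was the lowest library of each population, ColGFP and DBL overlapped, and TDonly was separate. The log2 fold change was -3.10 ± 0.48 for TDonly relative to ColGFP (adjusted p = 0.000582) and 3.27 ± 0.49 for DBL relative to TDonly (adjusted p = 0.000873). DBL relative to ColGFP gave 0.17 ± 0.45 (adjusted p = 0.853), and the sign turned without ColGFP replicate 1, at -0.06 (adjusted p = 0.95). Per kilobase of exon, the ratio of Tnxb to Tnc was 30.1 and 32.3 in DBL replicates 3 and 4 but 4.12 in DBL replicate 1, and it was 2.06 to 8.72 in the ColGFP and TDonly libraries. The pseudogene Cyp21a2-ps shares 3 exonic bases with Tnxb on the other strand.

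Sparc encodes the collagen-binding glycoprotein osteonectin, which is secreted by many mesenchymal and endothelial cells (chromosome 11, 55394500 to 55423183, minus strand). Its levels were 2332, 3348 and 3299.9 CPM in ColGFP, 3664, 3263 and 3717 in DBL and 1468, 1187 and 1384 in TDonly. ColGFP and DBL overlapped, and the TDonly libraries were all lower than either. The log2 fold change was -1.15 ± 0.17 for TDonly relative to ColGFP (adjusted p = 0.000411), 1.40 ± 0.17 for DBL relative to TDonly (adjusted p = 0.000328) and 0.25 ± 0.17 for DBL relative to ColGFP (adjusted p = 0.406).

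Sparcl1, also called hevin, encodes the closest relative of SPARC (chromosome 5, 104079111 to 104113733, minus strand). It measured 2081, 2701 and 2761 CPM in ColGFP, 1340.5, 1144 and 1198 in DBL and 659, 459 and 503 in TDonly. Its levels formed 3 separate steps in the same order as those of Thbs1. Sparcl1 was 2.05-fold lower in DBL than in ColGFP (log2 -1.03 ± 0.17, adjusted p = 0.0034), 4.65-fold lower in TDonly than in ColGFP (log2 -2.22 ± 0.18, adjusted p = 9.01e-06) and 2.27-fold higher in DBL than in TDonly (log2 1.18 ± 0.17, adjusted p = 0.000784). The ratio of Sparcl1 to Sparc per kilobase of exon was 0.796 to 0.880 in the ColGFP libraries, 0.318 to 0.361 in DBL and 0.359 to 0.443 in TDonly. ColGFP was thus separate from both populations with the Foxf1 reporter in this ratio, and DBL and TDonly overlapped.

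Postn encodes periostin, a ligand of integrins that supports collagen crosslinking (chromosome 3, 54361109 to 54391037, plus strand). It measured 107, 102 and 101 CPM in ColGFP, 158, 155 and 162 in DBL and 42.4, 75.1 and 77.6 in TDonly. Of the 10 members it had the closest replicates in ColGFP and DBL, all 3 DBL libraries were above all ColGFP libraries, and TDonly was lowest. The log2 fold change was 1.28 ± 0.19 for DBL relative to TDonly (adjusted p = 0.000948) and -0.67 ± 0.19 for TDonly relative to ColGFP (adjusted p = 0.0177), the latter being -0.44 without TDonly replicate 1 (adjusted p = 0.0027). DBL relative to ColGFP gave 0.61 ± 0.19, which did not pass with all 9 libraries in the model (adjusted p = 0.0642). It passed when only the libraries of these populations were fitted (log2 0.62, adjusted p = 0.00203), with DESeq2 (adjusted p = 0.0305), without TDonly replicate 1 (adjusted p = 0.000457) and within the 6 libraries of the higher core numbers (log2 0.65, adjusted p = 2.43e-06). Being higher in DBL than in both other populations was met by 0.868% of all tested genes and, with all 9 libraries, by none of the 10 members.

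**Figure D2:**
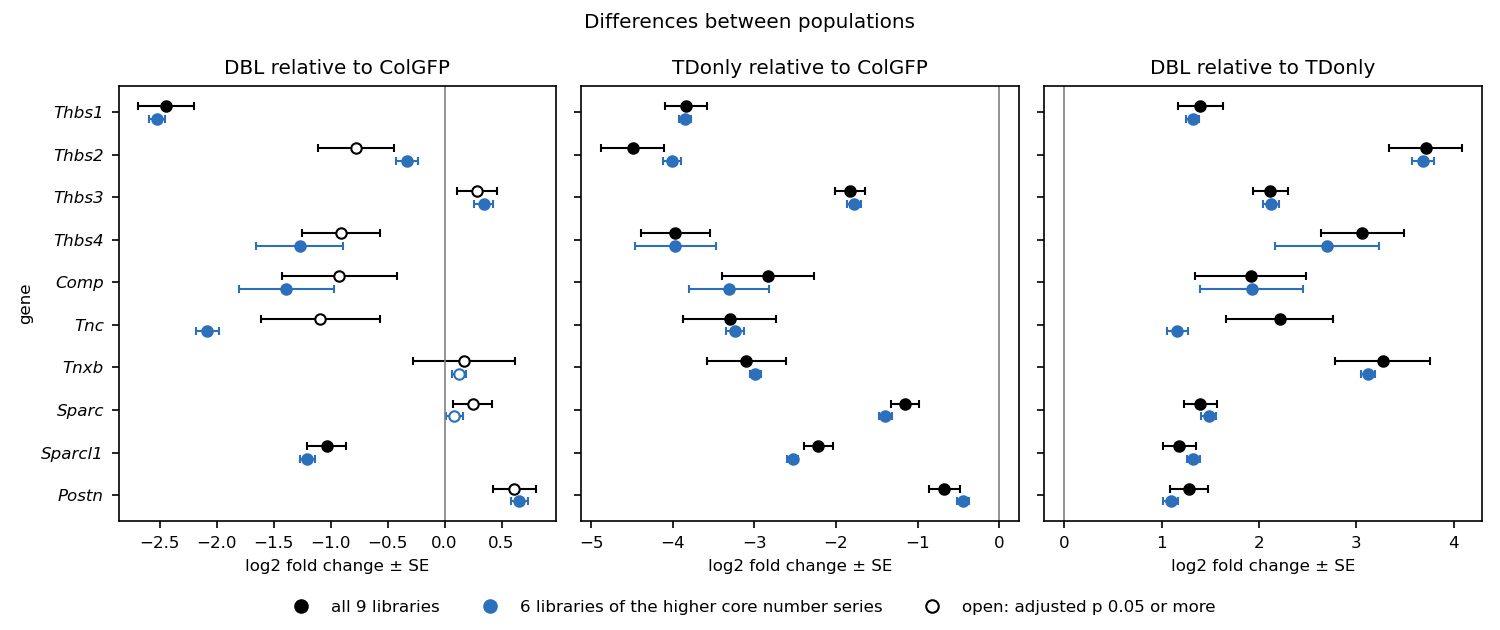
Log2 fold changes ± SE of the 10 genes in the 3 comparisons, black with all 9 libraries and blue with the 6 libraries of the higher core numbers, open where the adjusted p is 0.05 or more. Every point is below 0 for TDonly relative to ColGFP and above 0 for DBL relative to TDonly, whereas DBL relative to ColGFP has values on both sides of 0, and Tnc moves most between the fits.

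Within the 6 libraries of the higher core numbers, a pair per population, 2 members were higher in DBL than in ColGFP (Thbs3 and Postn, with 16.3% of all tested genes higher). In the same fit 6 were lower (Thbs1, Thbs2, Thbs4, Comp, Tnc and Sparcl1, with 12.6% of all tested genes lower). Tnxb and Sparc did not pass there. All 10 were again lower in TDonly than in ColGFP, where 29.8% of all tested genes were lower, and higher in DBL than in TDonly, where 23.6% were higher.

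The makeup of the set, compared per kilobase of exon so that genes of different length can be set side by side, differed between ColGFP and the other populations. Thbs1 made up 46.5 ± 1.96% of the summed level of the 10 genes in ColGFP, 15.3 ± 1.41% in DBL and 16.1 ± 4.40% in TDonly. Sparc made up 25.2 ± 1.01% in ColGFP, 53.3 ± 2.03% in DBL and 55.6 ± 3.32% in TDonly. Thrombospondin-1 was thus the leading transcript of the set in every ColGFP library, and SPARC in every DBL and TDonly library. Sparcl1 took 21.0 ± 1.06%, 18.2 ± 1.55% and 22.0 ± 3.60%, in the same order of populations, and TDonly overlapped with both others. Tnxb took 7.71 ± 1.96% in DBL against 3.76 ± 0.664% in ColGFP and 2.23 ± 1.26% in TDonly. These shares are descriptions, since an exact two-sided permutation test of 3 libraries against 3 cannot give a p below 0.1.

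**Figure D3:**
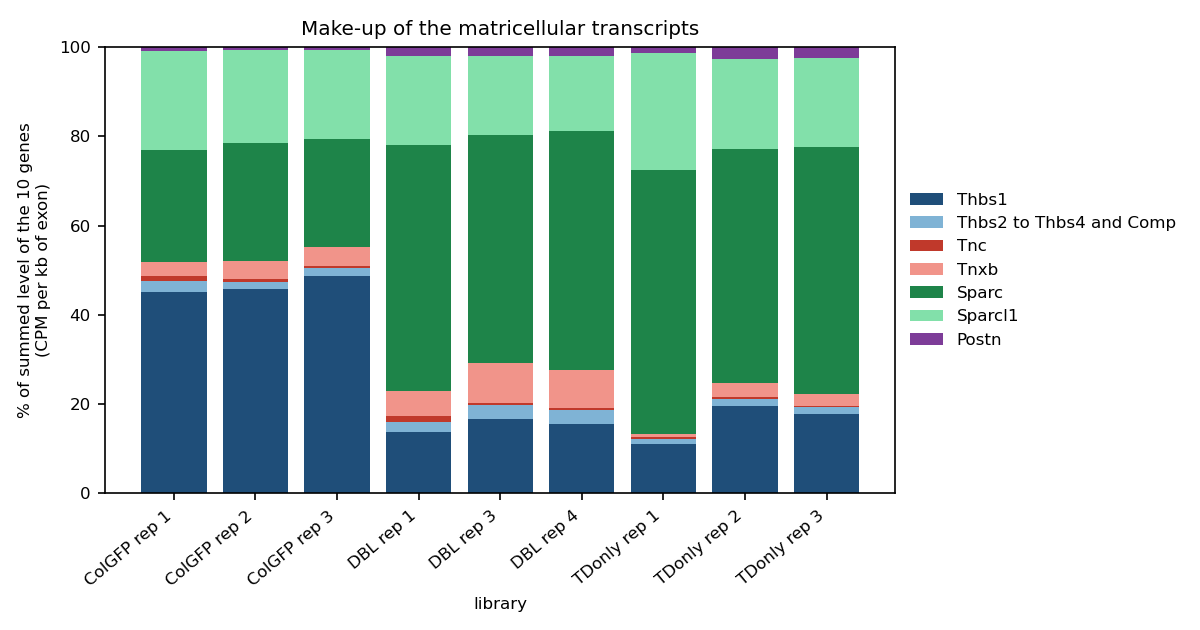
Stacked shares, in percent of the summed level of the 10 genes in CPM per kilobase of exon, for each of the 9 libraries on the x axis. Thbs1 fills 45.1 to 48.8% of the ColGFP bars and 11.1 to 19.5% of the others, where Sparc fills 51.2 to 59.1%.

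Among the 5 thrombospondins alone, Thbs1 held 94.7 to 96.7% of the level per kilobase in ColGFP, 82.7 to 86.0% in DBL and 91.5 to 92.0% in TDonly. The share left by Thbs1 in DBL was mainly that of Thbs3, at 9.68 to 11.2% against 1.58 to 2.07% in ColGFP and 6.61 to 7.38% in TDonly. Thbs2 held 3.96 to 5.90% in DBL, 1.41 to 3.17% in ColGFP and 0.869 to 1.32% in TDonly. DBL libraries did not overlap with either other population for these 3 shares.

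Other matricellular genes were also low in TDonly. Of the 16 tested among 19 related genes (the CCN family, further tenascins, SMOC, SPOCK and spondin proteins), 14 were lower and 1 higher in TDonly than in ColGFP, 13 were higher in DBL than in TDonly, and 3 were lower in DBL than in ColGFP. The median log2 fold changes of the list were -2.35, 1.80 and -0.13. Of all tested genes, 24% were lower and 21.6% higher in TDonly than in ColGFP. The shares were 17.3% higher in DBL than in TDonly and 6.47% lower in DBL than in ColGFP. The 3 that were lower in DBL than in ColGFP were Cyr61, Spon1 and Tnn. Cyr61 encodes CCN1, a matricellular integrin ligand, and measured 2652 ± 92.5 CPM in ColGFP, 991 ± 101 in DBL and 308 ± 48.4 in TDonly (log2 fold change of DBL relative to ColGFP -1.42 ± 0.14, adjusted p = 0.000201). Fstl1, a SPARC-related glycoprotein, measured 1122 ± 106 CPM in ColGFP, 1183 ± 97.1 in DBL and 219.6 ± 52.4 in TDonly, and Smoc1 and Wisp1 (CCN4) likewise did not pass between ColGFP and DBL (log2 fold change 0.09 ± 0.15 and 0.00 ± 0.14, adjusted p = 0.756 and 0.995). The gene that was higher in TDonly was Spp1, which encodes osteopontin (log2 1.71 ± 0.43, adjusted p = 0.00959).

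The matrix proteins and latent TGF-beta components with which these proteins interact had a like distribution. Of 19 such genes, 18 were lower and 1 higher in TDonly than in ColGFP, against 24% and 21.6% of all tested genes. In DBL relative to TDonly 17 were higher and 1 lower, against 17.3% and 12.6%. In DBL relative to ColGFP 1 was higher and 2 lower, against 8.04% and 6.47%. The median log2 fold changes were -2.58, 2.51 and -0.20, in the same order. Tgfb1, the ligand that thrombospondin-1 can release from its latent complex, was the gene that was higher in TDonly than in ColGFP and the gene that was lower in DBL than in TDonly. It measured 38.7 ± 0.899 CPM in ColGFP, 54.7 ± 3.38 in DBL and 100.4 ± 2.85 in TDonly, higher by 0.50 ± 0.08 in DBL (adjusted p = 0.00271) and by 1.38 ± 0.08 in TDonly (adjusted p = 1.39e-06) than in ColGFP. Ltbp3, which stores latent TGF-beta in the matrix, was lower than in ColGFP by -0.67 ± 0.12 in DBL (adjusted p = 0.00592) and by -2.17 ± 0.13 in TDonly (adjusted p = 1.46e-06). Col5a2, a fibrillar collagen chain, and Mmp14, a membrane-bound collagenase, were lower in TDonly than in ColGFP by -2.72 ± 0.22 and -2.03 ± 0.14 (adjusted p = 1.03e-05 and 4.06e-06) and did not pass between DBL and ColGFP (adjusted p = 0.589 and 0.412).

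The receptors and clearance proteins had members that passed in both directions. Of 22 tested, 6 were higher and 12 lower in TDonly than in ColGFP, where 21.6% of all tested genes were higher and 24% lower. In DBL relative to TDonly 12 were higher and 4 lower, against 17.3% and 12.6% of all tested genes, and in DBL relative to ColGFP 5 were higher and 6 lower, against 8.04% and 6.47%. Stab1, a scavenger receptor that takes up SPARC and is known from endothelium and macrophages, measured 33.8 ± 7.87 CPM in ColGFP, 129.6 ± 38.1 in DBL and 312 ± 94.2 in TDonly. Itga3, an integrin subunit that binds thrombospondin-1 and laminins, measured 71.8 ± 23.6, 182 ± 24.9 and 379 ± 35.5 CPM in the same order. Both passed all 3 tests, with log2 fold changes of 1.94 ± 0.27 and 1.35 ± 0.21 for DBL relative to ColGFP (adjusted p = 0.00137 and 0.00246). Cacna2d1, a calcium channel subunit that binds thrombospondins, went the other way, at 149.7 ± 11.2 CPM in ColGFP, 62.5 ± 11.9 in DBL and 14.6 ± 4.49 in TDonly (log2 -1.26 ± 0.22 for DBL relative to ColGFP, adjusted p = 0.00433). Egfr, through which tenascin-C repeats can signal, did not pass between DBL and ColGFP (log2 0.04 ± 0.23, adjusted p = 0.938) and was lower in TDonly than in ColGFP (log2 -2.75 ± 0.25, adjusted p = 1.82e-05). Cd36 and Cd47, the thrombospondin-1 receptors, were singled out after their values were seen. Cd36 measured 241 ± 109 CPM in ColGFP, 707 ± 123 in DBL and 1821 ± 265 in TDonly, and was higher than in ColGFP in DBL (log2 1.55 ± 0.29, adjusted p = 0.00658) and in TDonly (log2 2.92 ± 0.31, adjusted p = 4.7e-05). Cd47 did not pass between DBL and ColGFP (log2 0.14 ± 0.08, adjusted p = 0.318) and was higher in TDonly than in ColGFP (log2 0.42 ± 0.08, adjusted p = 0.00219). The order of the populations for Cd36 was thus the reverse of that for Thbs1.

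**Figure D4:**
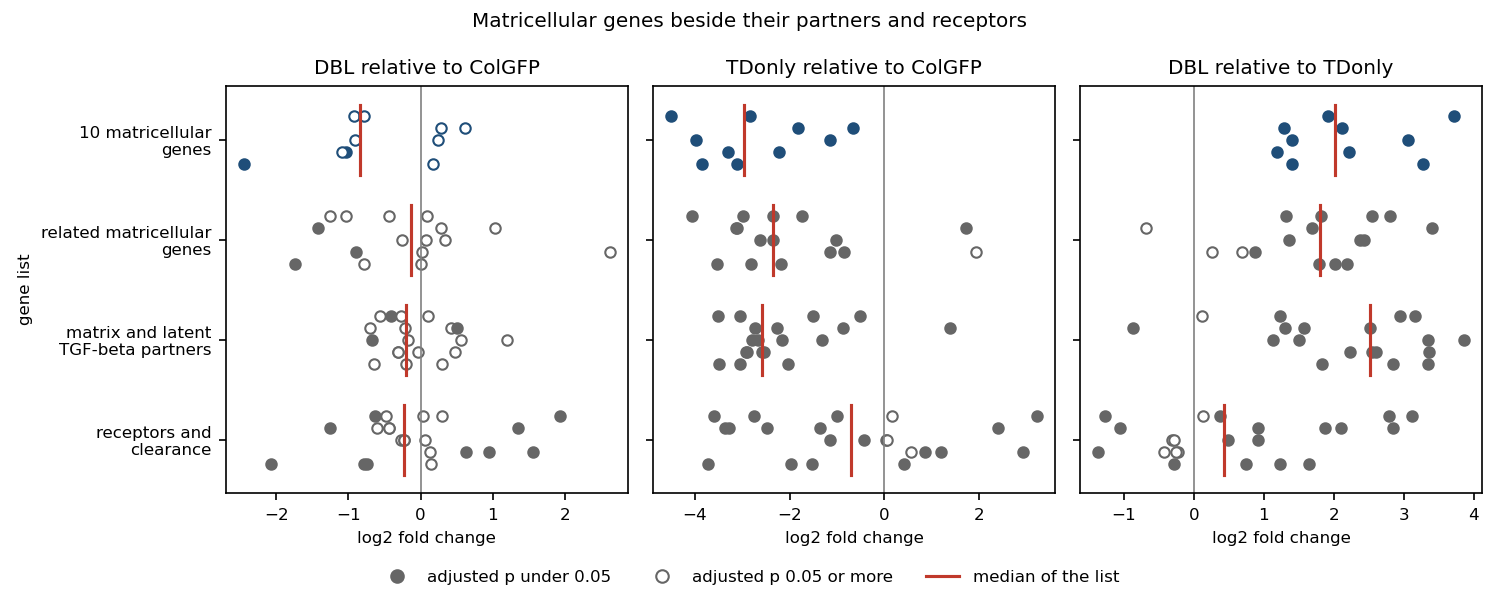
Log2 fold changes of each tested gene (points, filled where the adjusted p is under 0.05) in the 10 matricellular genes and 3 related lists, with a red bar at each list's median, in 3 panels for the 3 comparisons. The matrix and related lists lie mostly on the same side as the 10 genes for TDonly relative to ColGFP and for DBL relative to TDonly, and the receptors lie on both sides.

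Markers of the cell types that the sorts could hold also differed between the populations, in orders that varied by cell type. The part of these markers in the member values was not tested. Of all tested genes, 8.04% were higher and 6.47% lower in DBL than in ColGFP. The shares were 21.6% and 24% in TDonly relative to ColGFP, and 17.3% and 12.6% in DBL relative to TDonly. All 16 endothelium markers were higher in DBL and in TDonly than in ColGFP and lower in DBL than in TDonly. Alveolar fibroblast markers were lower in DBL than in ColGFP for 10 of 12. Of these 12, 11 were lower in TDonly than in ColGFP and 10 were higher in DBL than in TDonly. Summed levels were 17995 to 19303 CPM in ColGFP, 5275 to 6483 in DBL and 2382 to 3799.97 in TDonly, the order also seen for Thbs1 and Sparcl1. Macf1 alone made up a large part of these sums, at 9173 ± 718, 2990 ± 201 and 2140 ± 304 CPM in the same order. Smooth muscle and myofibroblast markers were lower in DBL than in ColGFP for 5 of 10 and lower in TDonly for 10 of 10. Their summed levels were 2262 to 3939 CPM in ColGFP, 1091 to 1328 in DBL and 362 to 459 in TDonly, also the order of Thbs1 and Sparcl1. The summed level of adventitial fibroblast markers was highest in DBL, at 7837 to 10274 CPM against 2019 to 5553 in ColGFP and 2089 to 2294 in TDonly. The lowest ColGFP value was that of replicate 1, with 5553 and 5359 CPM in replicates 2 and 3. That library also had the highest ColGFP sums of smooth muscle, epithelium and leukocyte markers (3939, 12215 and 2390 CPM). Of the 12 adventitial markers, 4 were higher in DBL than in ColGFP, and 9 were higher and 1 lower in DBL than in TDonly. In TDonly relative to ColGFP 2 were higher and 8 lower. Dpp4 and Ly6a had their highest mean in TDonly, at 187 ± 27.4 and 764 ± 225 CPM. Mesothelium markers were also highest in DBL, with 8 of 9 higher than in ColGFP. Summed pericyte markers were 797 to 1069 CPM in ColGFP, 872 to 1159 in DBL and 149 to 274 in TDonly. Single pericyte markers were split, since 3 of 9 were higher and 5 lower in TDonly than in ColGFP. In DBL relative to ColGFP 1 of 9 was higher and 1 lower, against 8.04% and 6.47% of all tested genes. None of the measured markers of these 6 cell types was at 0 in a whole population.

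Platelets carry much thrombospondin-1. Their 10 markers had summed levels of 15.4 to 23.4 CPM in ColGFP, 26.0 to 32.2 in DBL and 38.7 to 57.8 in TDonly. Of these markers 7 were higher in TDonly than in ColGFP and 1 was higher in DBL than in ColGFP, against 21.6% and 8.04% of all tested genes. The part of these markers in the Thbs1 values was not tested. Epithelium markers were higher in TDonly than in ColGFP for 7 of 12 and leukocyte markers for 1 of 12, where 21.6% of all tested genes were higher. Among 7 tested Schwann cell markers, 3 were higher and 1 lower in TDonly than in ColGFP, and Pmp2 was at 0 in DBL. Immediate early and heat shock genes, which respond to tissue dissociation and to which Thbs1 and Cyr61 are known to be related by their rapid induction, were lower in TDonly than in ColGFP for 13 of 20 and higher for 2. Of all tested genes, 24% were lower and 21.6% higher in that comparison. In DBL relative to ColGFP 1 was lower, the phosphatase gene Dusp1 (log2 -0.53 ± 0.13, adjusted p = 0.0211), against 6.47% of all tested genes. Fos gave -0.64 ± 0.20 there (adjusted p = 0.0672). The summed level of these 20 genes was 27543 to 37302 CPM in ColGFP, 20782 to 28312 in DBL and 13683 to 15079.5 in TDonly, and its part in the Thbs1 values was not tested.

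Genes whose levels followed each member most closely over the 9 libraries were sought among the 8916 genes with a mean of at least 10 CPM, by Pearson correlation of log2 CPM. The 9 points are 3 libraries of each population, so the values describe mainly the order of the populations. The closest to Thbs1 were Pros1 (protein S, an anticoagulant; r = 0.997), Trps1 and Eif2c1. Closest to Thbs2 was Eln (elastin; r = 0.997), followed by Kcnj8 and Papss2, and closest to Thbs3 was Zcchc24, followed by Gprc5b and Numbl. For Tnxb they were Enpp3, Gsn (gelsolin) and Fzd2 (a Wnt receptor), and for Sparc they were Tshz2, Txndc5 and Atp8b2. Sparcl1 was followed most closely by Vcam1 (an adhesion molecule; r = 0.994), Itm2c and Lix1l, and Postn by Notch3 (a receptor of mural cells; r = 0.990), Plekhg3 and Mpp6. For Tnc, whose DBL libraries were split, they were Ppp1r3a, Tor1aip2 and Slc20a2, with r of 0.979 to 0.989. Thbs4 and Comp were below the level limit and were not searched.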

How the data were processed

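The authors deposited raw read counts per gene symbol, whole numbers that they made with cutadapt, TopHat to mm10 and HTSeq, per the submitters' processing notes, which give no versions. Per the series text, ribosomal RNA was depleted; the labels' protocol describes whole frozen lungs and does not say how it applies to sorted cells. The table has 3 further columns that belong to no sample here and were left out. Columns were matched through the sequencing core numbers in the labels.

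Genes were kept by filterByExpr (minimum count 10), and the 9 libraries entered 1 quasi-likelihood model with population as the factor (edgeR 4.0.16, limma 3.58.1, R 4.3.3; TMM; 6 residual degrees of freedom, 3.42 prior). Tests were two-sided. The SE is the log2 fold change divided by the square root of F. Alternatives included DESeq2 1.42.0. In simulated DBL and ColGFP data of 15377 genes, the test found 51% of 100 genes set to change 2-fold and 89% of 100 set to change 4-fold, with 6 false calls. Lengths are merged GENCODE exons. The members, lists and tests were chosen with earlier results of these data known. From each list up to 4 genes were named by smallest adjusted p over the 3 comparisons; Spon1, Tnn, Spp1, Cd36 and Cd47 were named after their values were seen.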

Additional observations from a re-analysis of the deposited data

How the results depend on the processing

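Across 570 values for the 10 genes (30 differences under 19 other settings), 552 kept their direction and side of the threshold, 10 newly passed, 7 no longer passed and 1 reversed. The number of members lower in TDonly than in ColGFP was 10 under every setting. Members higher in DBL than in TDonly numbered 8 to 10 when each library was left out. Of genes differing between DBL and ColGFP there were 2256, and 4512 in the 6 libraries of the higher core numbers (2543 higher, 1969 lower). Leaving out each library gave 1468 (without ColGFP replicate 3) to 2761 (without TDonly replicate 1), and 1478 without ColGFP replicate 2. Members higher in DBL than in ColGFP numbered 0, but 1 with DESeq2 and 1 with only these populations, 2 in the 6 libraries, and 0 to 1 with each library left out. Members lower numbered 2, but 6 in the 6 libraries and 2 to 3 with each library left out, Tnc being added without DBL replicate 1. The log2 fold change of Tnxb in DBL relative to ColGFP ran from -0.064, a reversal, without ColGFP replicate 1 to 0.369 without DBL replicate 1. The cause of these changes was not tested.

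With the replicate number as a block, genes differing between DBL and ColGFP numbered 1581, and Comp no longer passed between DBL and TDonly (log2 1.97, adjusted p = 0.119), as with limma-voom (adjusted p = 0.0748). No other member call changed. Replicate number 4 belongs to a DBL library alone, so the block fits that library exactly and it adds nothing to the DBL comparisons. The numbers were not taken as a pairing, since not every same-numbered pair had deviations correlated above 0.1: the values were 0.102, 0.045 and 0.079 for ColGFP with TDonly, 0.093 and 0.016 for DBL with ColGFP, and 0.527 and 0.232 for DBL with TDonly. Deviations of DBL and TDonly libraries were correlated at 0.232 to 0.527 within the lower or the higher core numbers, and at -0.424 to -0.358 between them. Pairs with a ColGFP library ran from -0.115 to 0.122. The main model has no term for the core numbers. With sets of 3 adjoining core numbers as a block, 2854 genes differed between DBL and ColGFP and no member call changed. With 4 to 14 counts per TDonly library, depth limits Thbs4 and Comp.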
